A study of Mus musculus with 18 samples.

Results

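Clozapine and vehicle were compared in the microglia fraction of mouse frontal cortex, captured by panning on the leukocyte surface protein CD45. The libraries compared are 4 of the 18 of the series, 2 from clozapine pools and 2 from vehicle pools, chosen by their labels and paired by the labelled batch. The 2 microglia libraries of risperidone pools also enter the fit, where they add to the estimates of batch and spread. The series holds microglia, astrocyte (HepaCAM) and neuron (Thy1) fractions of the same pools, each after vehicle, clozapine or risperidone. The strain throughout was B6;D2-Tg(S100B-EGFP)1Wjt/J, which carries a transgene that expresses EGFP under the S100B promoter, so the vehicle groups carry it too. Injections were intraperitoneal and daily for 14 days, the first at postnatal day 60 and the last at day 74, and the mice were killed at day 75. The dose of clozapine was 10 mg/kg and that of risperidone 1 mg/kg, and vehicle mice received neither drug. Each library is a pool of the frontal cortices of 5 animals, so differences between single animals were not measured. The labels give male and female mice in one place and adult males in another, and Xist (332 to 628 CPM) and the Y-linked gene Ddx3y (74.1 to 110 CPM) were both read in all 6 microglia libraries. Levels are CPM, the usual counts-per-million scale over reads assigned to genes, with TMM scaling. Differences are log2 differences from an edgeR fit of the 6 microglia libraries with treatment and batch as terms, unless another fit is named. They are given with a standard error (SE) derived from the test statistic. That statistic takes its spread largely from other genes, so the SE is not the spread between pools. A gene is called where its Benjamini-Hochberg adjusted p over all 32846 genes tested is under 0.05.

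Microglia are the resident macrophages of the brain, and like other macrophages they can sense foreign or misplaced nucleic acid. Sensors such as the RNA helicase encoded by Ifih1 lead to transcription of interferon beta, which acts through its receptor, JAK kinases and STAT proteins on a wide set of antiviral genes. Many of these genes carry an interferon-stimulated response element in their promoter, and some of them can also be switched on directly by interferon regulatory factors without secreted interferon. Clozapine is an atypical antipsychotic that binds many dopamine, serotonin, muscarinic, adrenergic and histamine receptors, and risperidone is another atypical antipsychotic with high affinity for dopamine D2 and serotonin 2A receptors.

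Because 4 of the 5 called genes are interferon effectors, promoter windows of 3 of those effectors (Ifit1, Rsad2 and Oasl1) and of Isg15 are shown, from 250 bases before to 50 bases after the RefSeq start on GRCm38.p6, with matches to the response element core in capitals. The core searched was GAAA, any 2 bases and GAAA, on both strands, so a match on the other strand reads TTTC, any 2 bases and TTTC. The windows are chr19:34640639-34640938 on the plus strand for Ifit1, chr12:26456403-26456702 on the minus strand for Rsad2, chr4:156200769-156201068 on the minus strand for Isg15 and chr5:114922990-114923289 on the plus strand for Oasl1, each written 5′ to 3′ along the gene.
Ifit1: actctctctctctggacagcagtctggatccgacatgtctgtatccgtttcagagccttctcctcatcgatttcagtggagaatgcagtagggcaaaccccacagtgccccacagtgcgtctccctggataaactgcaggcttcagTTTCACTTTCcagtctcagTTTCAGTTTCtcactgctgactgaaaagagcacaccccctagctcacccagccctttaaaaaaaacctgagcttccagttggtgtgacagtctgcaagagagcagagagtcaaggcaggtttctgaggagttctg
Rsad2: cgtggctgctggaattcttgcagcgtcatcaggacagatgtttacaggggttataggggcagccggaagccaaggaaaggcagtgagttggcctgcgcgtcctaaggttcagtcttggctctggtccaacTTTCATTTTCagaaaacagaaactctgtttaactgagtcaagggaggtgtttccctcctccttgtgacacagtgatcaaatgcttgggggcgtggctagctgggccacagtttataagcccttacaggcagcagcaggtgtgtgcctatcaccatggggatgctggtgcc
Isg15: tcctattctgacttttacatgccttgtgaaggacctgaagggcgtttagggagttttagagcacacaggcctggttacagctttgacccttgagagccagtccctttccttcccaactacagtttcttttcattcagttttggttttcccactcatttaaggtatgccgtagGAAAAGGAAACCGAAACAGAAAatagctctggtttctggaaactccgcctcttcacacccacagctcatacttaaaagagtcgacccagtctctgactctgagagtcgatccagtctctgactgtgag
Oasl1: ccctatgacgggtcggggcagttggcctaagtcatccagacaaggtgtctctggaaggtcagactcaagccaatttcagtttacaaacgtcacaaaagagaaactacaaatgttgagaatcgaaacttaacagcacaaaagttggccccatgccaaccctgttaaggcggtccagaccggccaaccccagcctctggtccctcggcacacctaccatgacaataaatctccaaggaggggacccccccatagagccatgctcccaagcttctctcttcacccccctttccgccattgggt

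In the Ifit1 window the core began 104 and 85 bases before the start, in the Rsad2 window 120 bases before it, and in the Isg15 window 78, 72 and 66 bases before it. These 3 Isg15 matches overlap one another. The Oasl1 window and both Ifit2 windows held no match, which says only that these letters are not in these windows. The core was found in 18 of 34 windows of the interferon effector list (52.9%, exact 95% binomial interval 35.1 to 70.2), against 1131 of all 32851 windows (3.44%). The interval takes windows as independent, though some genes have more than 1 window. By gene, the core was in 15 of 28 effectors (53.6%), against 3.99% of all 27025 genes with a window. It was in 0 of 20 windows of homeostatic microglia genes and in 2 of 33 windows of dissociation and immediate-early genes. A RefSeq window was found for 28 of the 37 listed effectors. Among the tested effectors, the 15 with a match had a median clozapine minus vehicle difference of 0.63, the 12 whose windows had none 0.48, and the 9 with no window entry 0.28.

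The microglia libraries held 7009289 and 8166085 assigned reads with vehicle, 7404228 and 9530838 with clozapine, and 5283809 and 6257095 with risperidone (batch 1 and 2). The 10 microglia markers checked, among them Cx3cr1, P2ry12 and Tmem119, were each higher in every microglia library than in any astrocyte or neuron library. The fraction was not pure: Snap25, a synaptic vesicle fusion protein of neurons, stood at 164 to 1160 CPM in it against 1090 to 3120 CPM in neuron libraries when all 18 were scaled together. Batch was a large source of difference, and the batch 2 minus batch 1 differences of vehicle and clozapine correlated at 0.43 across 16333 genes, which are not independent replicates. The batch 1 vehicle library stood apart in several gene groups described below. Olfactory and vomeronasal receptor genes, which serve smell in the nose, were read at 0.490 and 0.399 RPKM (reads per kilobase of gene, scaled to the library's assigned reads) in the vehicle libraries, 0.452 and 0.279 in the clozapine libraries and 0.747 and 0.810 in the risperidone libraries. This floor of reads was therefore lowest in the batch 2 clozapine library, and for genes at a few CPM its part in a difference was not tested.

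The first question was which genes differed between clozapine and vehicle in the same direction in both batches. With clozapine, 5 genes rose, or 0.0152% of the genes tested, and 0 fell (0%). Of the 5, 4 are antiviral effectors induced by interferon: Oasl1, an oligoadenylate synthetase-like protein that restrains translation of Irf7, Ifit1 and Ifit2, which bind foreign RNA and block its translation, and Rsad2 (viperin), which makes a chain-terminating nucleotide. The fifth is an unnamed 80-base gene model. At an unadjusted p under 0.05 in edgeR, 894 genes were higher (2.72%) and 948 lower (2.89%), and DESeq2 called 8 higher and 1 lower. A higher level in a bulk fraction cannot tell more RNA per cell from more cells of the type that makes it.

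Oasl1 stood at 142 and 31.1 CPM in the vehicle libraries of batch 1 and 2, at 345 and 159 CPM with clozapine, and at 378 and 63.4 CPM with risperidone. Both clozapine libraries lay above both vehicle libraries, and the batch 1 libraries were higher throughout. The clozapine minus vehicle difference of Oasl1 was 1.86 (SE 0.29, n = 2 pools each), with an edgeR adjusted p of 0.0158, and it was 1.28 within batch 1 and 2.34 within batch 2.

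Ifit2 was read at 32.0 and 6.05 CPM with vehicle, 74.2 and 48.6 CPM with clozapine, and 71.4 and 13.6 CPM with risperidone. Again the clozapine libraries did not overlap the vehicle libraries. Its difference was 2.13 (SE 0.35, edgeR adjusted p 0.033), or 1.21 in batch 1 and 2.95 in batch 2.

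Ifit1 was read at 60.6 and 3.91 CPM with vehicle, 129.6 and 49.2 CPM with clozapine, and 138 and 13.3 CPM with risperidone. The batch 2 clozapine library lay below the batch 1 vehicle library, so the groups overlapped and the difference shows only within batches. The difference of Ifit1 was 2.30 (SE 0.39, edgeR adjusted p 0.035), or 1.09 in batch 1 and 3.56 in batch 2.

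Rsad2 was read at 55.4 and 11.5 CPM with vehicle, 125 and 43.9 CPM with clozapine, and 115 and 19.6 CPM with risperidone. Its groups overlapped in the same way as those of Ifit1. The difference of Rsad2 was 1.56 (SE 0.27, edgeR adjusted p 0.0466), or 1.17 in batch 1 and 1.91 in batch 2. Where each of these 4 genes lies is known from the count files, on GRCm39: Ifit2 and Ifit1 are neighbours on chromosome 19 (34528094 to 34553819 and 34618271 to 34627409, plus strand), Rsad2 is on chromosome 12 (26492745 to 26506451, minus strand) and Oasl1 on chromosome 5 (115061299 to 115075974, plus strand).

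Without batch as a term, edgeR called 0 genes (1040 at an unadjusted p under 0.05). A single fit of all 18 libraries, with batch within each fraction as a term, also called 0 (1171). Leaving out the batch 2 clozapine library kept 1 of the 5 calls, the unnamed gene, while leaving out any other single microglia library kept all 5. The number of genes called rose with fewer libraries, to 87 without the batch 1 vehicle library and 60 without that of batch 2, to 66 and 18 without the clozapine libraries, and to 47 and 40 without the risperidone libraries of batch 1 and 2. Without the batch 2 clozapine library Oasl1 differed by 1.22, Rsad2 by 1.15, Ifit1 by 1.24 and Ifit2 by 1.25.

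**Figure D1:**
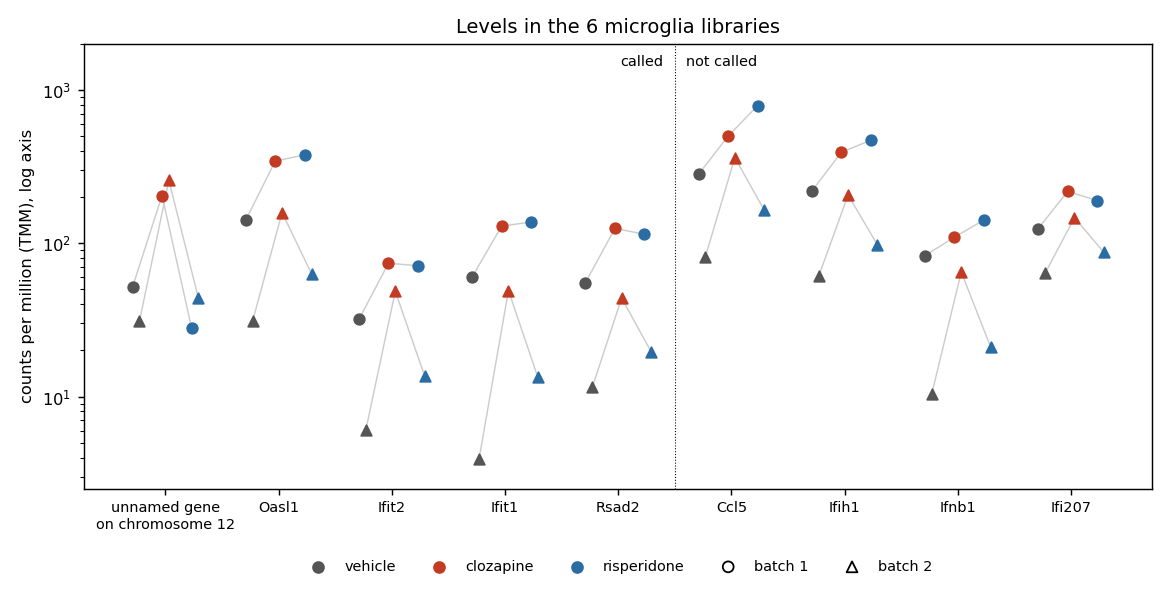
Level in CPM (TMM scaled, log axis) of the 5 called genes and of 4 further genes in each microglia library; circles are batch 1, triangles batch 2, and grey lines join the libraries of a batch. In both batches each gene shown was higher with clozapine than with vehicle, and in batch 1 risperidone lay near or above clozapine for the 4 called interferon genes.

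The fifth called gene, ENSMUSG00002075676.1, spans 80 bases of chromosome 12 (69407953 to 69408032, minus strand, GRCm39) and has no symbol in the annotation used. It was read at 52.1 and 31.0 CPM with vehicle, 205 and 257 CPM with clozapine, and 28.2 and 44.2 CPM with risperidone. Vehicle and risperidone libraries ranged from 28.2 to 52.1 CPM, both clozapine libraries stood above all 4 of them, and the batch 2 clozapine library was the higher one. The difference was 2.47 (SE 0.29), with an edgeR adjusted p of 0.000298.

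This gene model lies within the end of an unnamed 300-base model, ENSMUSG00000118841.1 (69407956 to 69408255, same strand), and all but 3 of its bases are shared, so nearly all reads on it count for both. The 300-base model did not follow it: its difference was -0.01 (SE 0.24, edgeR adjusted p 0.998), on 8923 to 20426 reads a library. Reads on the 80-base model came to 2.06% (Wilson 95% interval 1.86 to 2.29) and 1.78% (1.57 to 2.01) of those on the 300-base model with vehicle. With clozapine they came to 11.3% (10.8 to 11.9) and 10.5% (10.1 to 10.9), and with risperidone to 1.76% (1.51 to 2.05) and 2.45% (2.20 to 2.73). These intervals cover counting error only. In the 12 astrocyte and neuron libraries the same ratio ran from 1.25% to 4.65%, with the highest value in the batch 1 clozapine neuron library. Another short model inside the 300-base one, ENSMUSG00002075983.1 of 70 bases, took 53.3% and 53.9% of its reads with vehicle and 48.1% and 50.3% with clozapine. The call thus concerns the 80 bases at the low-coordinate end, and the 300-base model as a whole was not called.

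Next by p were genes that did not pass the test. Ccl5, a chemokine that draws T cells and monocytes, was read at 283 and 82.0 CPM with vehicle, 501 and 363 CPM with clozapine, and 791 and 164 CPM with risperidone (difference 1.57, SE 0.30, edgeR adjusted p 0.125). Ifih1, the sensor of long double-stranded RNA, was read at 219 and 60.8 CPM, 393 and 207 CPM, and 470 and 97.6 CPM in the same order (1.35, SE 0.27, edgeR adjusted p 0.165). Ifnb1, which encodes interferon beta itself, was read at 83.2 and 10.5 CPM, 109.7 and 64.9 CPM, and 142 and 21.0 CPM (1.56, SE 0.36, edgeR adjusted p 0.524). All 3 shared the pattern of the called effectors, with the batch 2 vehicle library lowest. Without the batch 2 clozapine library Ccl5 differed by 0.74, Ifih1 by 0.77 and Ifnb1 by 0.48. Ifi207, a family member of the interferon-inducible DNA-binding proteins, differed by 1.01 (SE 0.24) and Hpf1, a cofactor of the PARP enzymes, by 1.70 (SE 0.40), each with an edgeR adjusted p of 0.524. Hpf1 was read at 189 CPM in the batch 2 clozapine library and at 20.1 to 43.8 CPM in the other 5, so its difference rested on that library and was 0.27 without it.

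Among 36 tested interferon effectors, 4 rose and 0 fell, beside 0.0152% and 0% of all genes tested. At an unadjusted p under 0.05 in edgeR, 12 were higher and 0 lower, beside 2.72% and 2.89% of all genes tested. These shares also apply to the counts at that threshold for the lists below. Of the list, 21 (58.3%) were higher in both batches and 1 (2.78%) lower in both, where over all genes tested 24.8% were higher and 26.8% lower in both batches, and over the 16333 genes with a mean of at least 5 CPM 31.3% and 21.6%. The median difference of the effectors was 0.49, against -0.02 over all genes tested and 0.05 over those with at least 5 CPM, and it was 0.29 within batch 1 and 0.88 within batch 2. Both clozapine libraries lay above both vehicle libraries for 15 of the 36 and below for 0, beside 13.5% and 15.8% of all genes tested. Summed over the list, the level was 926 and 503 CPM with vehicle, 1480 and 1020 CPM with clozapine, and 1500 and 652 CPM with risperidone. The plot of the effectors one by one shows that the difference was carried by part of the list.

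The upper part of the list held the IFIT family, the Mx GTPases and single effectors. Ifit3 differed by 1.69 (SE 0.41), Ifit3b by 1.19 (SE 0.39) and Ifit1bl1, read at 1.97 to 4.91 CPM, by 0.63 (SE 0.59). Mx1 (1.18, SE 0.45) and Mx2 (1.19, SE 0.36), dynamin-like proteins that trap viral nucleocapsids, and Isg15 (1.22, SE 0.35), a ubiquitin-like modifier, lay beside them. Isg15 was read at 40.5 and 6.43 CPM with vehicle, 50.4 and 27.7 CPM with clozapine, and 55.8 and 8.70 CPM with risperidone. Its batch 1 libraries were therefore close to each other, with a difference of 0.31 there against 2.06 in batch 2. Parp14, a mono-ADP-ribosyltransferase, differed by 1.00 (SE 0.25) with nearly the same value in both batches, from 110.1 and 89.0 CPM with vehicle to 223 and 177 CPM with clozapine. None of Ifit3, Ifit3b, Mx1, Mx2, Isg15 and Parp14 passed the test, with edgeR adjusted p from 0.524 to 0.882. Without the batch 2 clozapine library Ifit3 differed by 0.56, Ifit3b by 0.75 and Isg15 by 0.34.

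The lower part of the list included the oligoadenylate synthetases Oas2 and Oas3 and the related Oasl2, which activate or resemble activators of RNase L. Oasl2 differed by 0.20 (SE 0.40), Oas2 by 0.21 (SE 0.47) and Oas3 by 0.27 (SE 0.44), each with a sign that differed between batches. Across the 6 libraries these 3 genes were read at 2.88 to 15.3 CPM, and Oas1a (0.96, SE 0.74) at 0.421 to 3.90 CPM. Rtp4 (0.20, SE 0.42), Zbp1 (0.28, SE 0.42), a sensor of Z-form nucleic acid, and Trim30a (0.38, SE 0.29) were higher in both batches by small amounts.

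**Figure D2:**
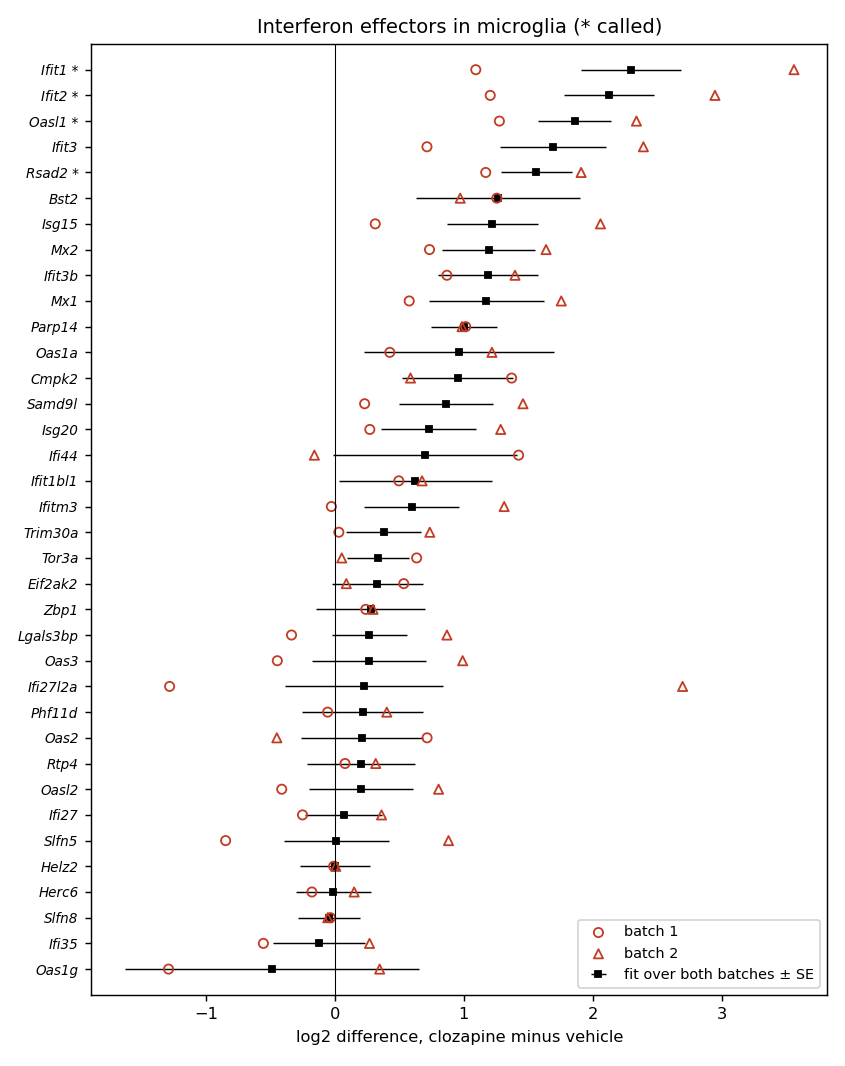
Log2 difference of clozapine minus vehicle for the 36 tested interferon effectors, within batch 1 (circles), within batch 2 (triangles) and in the fit over both (squares, with SE). Ifit1, Ifit2, Oasl1, Ifit3 and Rsad2 sit at the top with batch 2 to the right of batch 1, and the lower part of the list lies around 0 with batches on either side.

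The genes that sense nucleic acid, make interferon or carry its signal had medians near 0, but single members differed. Ifih1 (1.35, SE 0.27) is in the list of regulators and sensors. Ifnb1 (1.56, SE 0.36) is in that of ligands and receptors. Both, described above, were higher in both batches. Of 23 tested regulators and sensors, 0 were called, 5 (21.7%) were higher and 8 (34.8%) lower in both batches, and the median was -0.05. The shares over all genes tested were 24.8% and 26.8%. Irf7, the amplifier of interferon production, was read at 8.04 and 3.91 CPM with vehicle and 13.8 and 11.2 CPM with clozapine (1.11, SE 0.39, edgeR adjusted p 0.85). Irf1 (-0.59, SE 0.29), Irf8 (-0.49, SE 0.24) and Tmem173, which encodes the adaptor STING (-0.64, SE 0.27), were lower in both batches and their differences lay mostly in batch 1, at -0.998, -0.837 and -0.996, against -0.10, -0.12 and -0.22 in batch 2. Among 11 tested ligands and receptors 0 were called, with a median of -0.08, and Tyk2, a kinase of the receptor, differed by -0.32 (SE 0.28). The 15 interferon-induced GTPases had a median of 0.05 with 4 higher and 3 lower in both batches, among them Irgm1 (0.73, SE 0.33), Gbp2 (0.32, SE 0.31) and Gbp4 (-0.74, SE 0.39). The 16 MHC class I genes had a median of 0.04 and the 8 MHC class II genes of -0.01. Of these 5 lists edgeR called 0 members. At an unadjusted p under 0.05, 3 regulators and sensors were higher and 2 lower. At that threshold 1 ligand or receptor and 1 GTPase were higher, 0 of either were lower, and 0 MHC genes passed.

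Risperidone gives the second drug beside clozapine, against the same vehicle libraries, so the differences from vehicle are not independent of each other. The risperidone minus vehicle difference was 1.25 (SE 0.28) for Oasl1, 1.15 (SE 0.34) for Ifit2 and 1.32 (SE 0.37) for Ifit1, and Rsad2 differed by 0.93 (SE 0.27). In that comparison edgeR called 0 genes in either direction (0%), with 1241 higher (3.78%) and 1464 lower (4.46%) at an unadjusted p under 0.05. The effector list had a median of 0.52 for risperidone minus vehicle and 0.49 for clozapine minus vehicle. Clozapine was also compared with risperidone directly, in the fit of the 6 microglia libraries, where the vehicle libraries add to the estimates of batch and spread. There Oasl1 differed by 0.61 (SE 0.28), Rsad2 by 0.63 (SE 0.27), Ifit1 by 0.98 (SE 0.37) and Ifit2 by 0.98 (SE 0.34), with edgeR adjusted p of 0.372, 0.341, 0.294 and 0.257. In batch 1 both drugs stood at similar levels for these genes, and in batch 2 clozapine lay above risperidone.

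In that contrast 2 genes rose with clozapine relative to risperidone (0.00609% of genes tested) and 0 fell (0%). At an unadjusted p under 0.05 in edgeR, 2053 were higher (6.25%) and 2061 lower (6.27%), and DESeq2 called 0 lower and 318 higher. With 1 microglia library left out edgeR called 19 (without the batch 2 clozapine library) to 809 genes (without the batch 1 vehicle library). The first of the 2 was the 80-base gene on chromosome 12 (2.68, SE 0.29, edgeR adjusted p 7.22e-05). The other, ENSMUSG00000119584.1, is an unnamed gene on chromosome 17 (40157244 to 40159092, plus strand), which was read at 18290 and 14570 CPM with clozapine, 6679 and 6292 CPM with risperidone and 13200 and 13040 CPM with vehicle (1.33, SE 0.21, edgeR adjusted p 0.0261). Its clozapine minus vehicle difference was 0.32 (SE 0.21), so it was the risperidone libraries that lay low.

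Whether the clozapine difference was larger in microglia than in the other fractions was tested as an interaction over all 18 libraries with each pool as a block. No gene was called against astrocytes (0%; 171 at an unadjusted p under 0.05) or against neurons (0%; 872, of which 810 or 2.17% had the larger difference in microglia) by edgeR, and 0 by DESeq2. Without the batch 1 vehicle microglia library edgeR called 11 against astrocytes and 171 against neurons. Oasl1 was read at 2.42 and 44.1 CPM in vehicle astrocytes and 4.36 and 5.68 CPM in clozapine astrocytes, and the microglia minus astrocyte difference in its response was 1.84 (SE 1.58, edgeR adjusted p 1.0). For Ifit2 the same quantity was 2.09 (SE 0.87, edgeR adjusted p 1.0), from 12.9 and 8.34 CPM in vehicle and 10.1 and 8.88 CPM in clozapine astrocytes. For Rsad2 it was 1.29 (SE 1.05) and for Ifit1 0.48 (SE 1.17). Ifit1 was higher with clozapine in astrocytes too, at 2.585 and 3.67 CPM with vehicle and 9.00 and 9.37 CPM with clozapine. Against neurons the difference in response was 2.12 (SE 0.90) for Ifit2 and 2.96 (SE 1.09) for Rsad2, each with an edgeR adjusted p of 1.0. The effector median was -0.14 for clozapine minus vehicle in astrocytes and -0.61 in neurons. In neurons the median was also -0.87 for microglia markers, -0.74 for homeostatic microglia genes and -2.19 for cytokines and chemokines. The floor of smell receptor reads in neuron libraries was 0.201 and 0.0616 RPKM with vehicle and 0.0468 and 0.0263 RPKM with clozapine. The part of microglial RNA and of this floor in the neuron interaction was not tested.

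Across all genes, the 2 batches shared little. Of 32846 genes tested, 8156 were higher and 8813 lower in both batches, and 15797 went opposite ways. At a difference of at least 1.5-fold in each batch, 1171 were higher in both (3.57%), 2229 lower in both (6.79%) and 3027 opposite (9.22%). Among genes with a mean of at least 5 CPM the same counts were 278, 273 and 418, so the surplus of lower genes lay among those with few reads. The floor of smell receptor reads was 0.490 RPKM with vehicle and 0.452 with clozapine in batch 1, and 0.399 and 0.279 in batch 2. Its part in this surplus was not tested. Across genes the within-batch differences correlated at 0.02, or 0.06 at 5 CPM and above, and genes are not independent replicates.

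**Figure D3:**
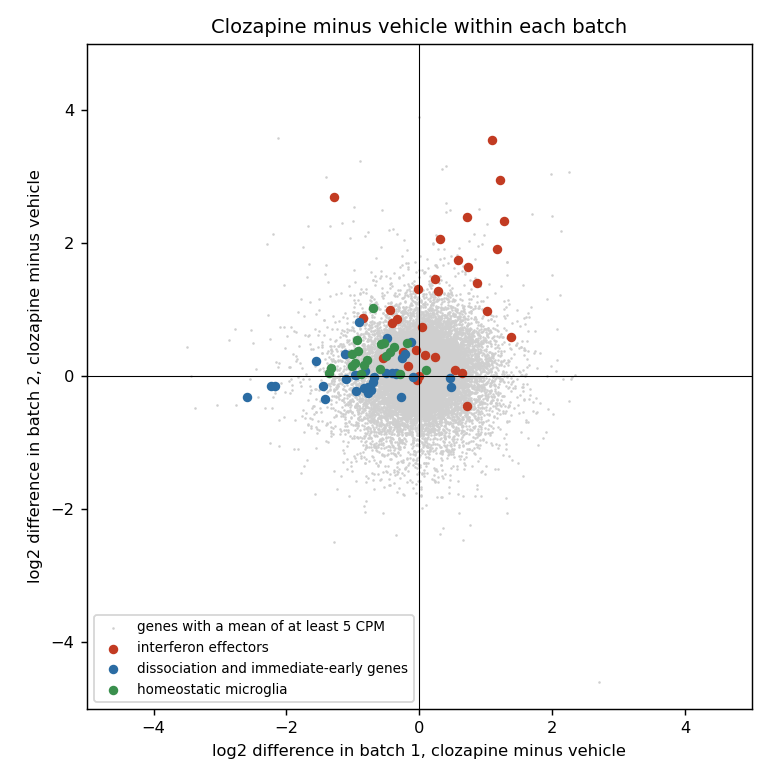
Log2 difference of clozapine minus vehicle in batch 1 (horizontal) and batch 2 (vertical) for genes with a mean of at least 5 CPM, each a difference of 1 library from 1. The cloud has no visible tilt, interferon effectors reach into the upper right, dissociation and immediate-early genes spread to the left at batch 2 differences near 0, and homeostatic microglia genes lie to the upper left.

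On the lower side 0 genes were called, and the 10 genes of smallest p that were lower in both batches were of a few kinds. Klf2, a transcription factor that restrains inflammatory genes, was read at 207 and 99.9 CPM with vehicle and 33.96 and 80.3 CPM with clozapine (-1.70, SE 0.43, edgeR adjusted p 0.524). Klf4 was read at 189 and 89.5 CPM with vehicle and 39.8 and 81.0 CPM with clozapine (-1.30, SE 0.35, edgeR adjusted p 0.663). Fosb, a subunit of AP-1, was read at 673 and 244 CPM with vehicle and 149 and 220 CPM with clozapine (-1.22, SE 0.32, edgeR adjusted p 0.631). In all 3 the batch 1 vehicle library was the highest of the 6, and without it the differences were -0.07, -0.15 and -0.26. Fndc7 had the same pattern (-1.54, SE 0.40, and -0.20 without that library).

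Other genes of this group were lower in both batches, by similar amounts for Hpgd and by unequal ones for Fmo5 and Rgs9. Hpgd, the enzyme that inactivates prostaglandins, was read at 47.2 and 16.6 CPM with vehicle and 21.2 and 7.56 CPM with clozapine, which is -1.15 in batch 1 and -1.11 in batch 2 (SE 0.30 in the fit, edgeR adjusted p 0.613). Fmo5 was read at 13.1 and 6.43 CPM and 3.34 and 2.88 CPM (-1.60, SE 0.45, edgeR adjusted p 0.787), and without the batch 1 vehicle library it differed by -0.99. Rgs9, a regulator of G protein signalling of the striatum, was read at 50.4 and 103 CPM with vehicle, 31.2 and 31.7 CPM with clozapine, and 20.3 and 42.5 CPM with risperidone (-1.18, SE 0.28, edgeR adjusted p 0.524), and without the batch 2 clozapine library it differed by -0.65. Drd1, the dopamine D1 receptor, was read at 10.6 and 26.2 CPM with vehicle, 3.06 and 10.8 CPM with clozapine, and 6.82 and 9.54 CPM with risperidone (-1.46, SE 0.38, edgeR adjusted p 0.572). Rgs9 and Drd1 are genes of neurons, and both drugs' libraries were lower than the vehicle library of their batch. Cntn5 (-1.12, SE 0.30) and Cacna2d3 (-0.89, SE 0.24), an adhesion protein and a calcium channel subunit of neurons, complete the 10.

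The dissociation and immediate-early list, genes such as Fos, Jun and Egr1 that respond within minutes to stimulation or to tissue handling, leaned to lower values. Of its 32 tested members 0 were called by edgeR (10 lower and 0 higher at an unadjusted p under 0.05), 0 were higher in both batches and 16 lower in both, where 26.8% of all genes tested were, with both clozapine libraries below both vehicle libraries for 11, beside 15.8% of all genes tested. The median was -0.41, but -0.77 within batch 1 and -0.02 within batch 2, and without the batch 1 vehicle library it was -0.04. The summed level was 13400 CPM in that library and 7140 to 8400 CPM in the other 5. Dusp5, a phosphatase of ERK, lay on the other side (0.21, SE 0.23). Risperidone minus vehicle gave a median of -0.45, with the same vehicle libraries.

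Homeostatic microglia genes showed the same library from the other side of the question. Of 20 tested members 1 was higher in both batches, 0 lower in both, and 19 differed in sign between batches. Over all genes tested 24.8% were higher in both, 26.8% lower in both and 48.1% went opposite ways. The list's medians were -0.74 in batch 1, 0.27 in batch 2 and -0.26 in the fit. P2ry12, the purinergic receptor that guides process movement, was read at 762 and 352 CPM with vehicle and 426 and 398 CPM with clozapine (-0.35, SE 0.25). Cx3cr1, the fractalkine receptor, was read at 727 and 398 CPM with vehicle and 395 and 410 CPM with clozapine (-0.44, SE 0.25). Tmem119 was read at 121 and 52.1 CPM with vehicle and 60.1 and 57.8 CPM with clozapine (-0.45, SE 0.27). For these 3 genes the clozapine libraries lay near the batch 2 vehicle library, well under the batch 1 one. Without that library the list's median was 0.23 and the 3 genes differed by 0.15, 0.05 and 0.09, and the summed list was 10400 and 5820 CPM with vehicle and 7100 and 7110 CPM with clozapine.

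Other inflammatory lists had 0 members called by edgeR and medians from -0.05 to 0.15. Beside the counts that follow, 24.8% of all genes tested were higher and 26.8% lower in both batches. At an unadjusted p under 0.05, 3 cytokine genes were higher and 2 lower. Of 24 disease-associated microglia genes, 7 were higher and 3 lower in both batches (median 0.11), among them Cd63 (0.51, SE 0.24), Apoe (0.40, SE 0.23) and Csf1 (-0.56, SE 0.23, and -0.33 without the batch 1 vehicle library). Of 22 cytokines and chemokines, 9 were higher and 2 lower in both batches (median 0.15). Cxcl10, a chemokine induced by interferon, was read at 363 and 104 CPM with vehicle and 379 and 309.5 CPM with clozapine, so it differed by 0.06 in batch 1 and 1.57 in batch 2 (0.89, SE 0.29). Tnf was read at 881 and 655 CPM with vehicle and 1467 and 815 CPM with clozapine (0.51, SE 0.24). Complement genes (13 tested, median -0.05), Toll-like receptors (17, 0.07) and NF-kB genes (21, -0.04) had 2, 4 and 5 members higher and 2, 0 and 5 lower in both batches, and C5ar1, the C5a receptor, was higher in both batches by 0.51 (SE 0.23). Glucocorticoid-responsive genes had a median of -0.05, with Sgk1 (-0.74, SE 0.25) and Tsc22d3 (-0.82, SE 0.29) lower and Klf9 (0.62, SE 0.26) higher in both batches. Without the batch 1 vehicle library Sgk1 differed by -0.30 and Tsc22d3 by -0.13.

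Nuclear genes of the respiratory chain were a group whose members were higher in small steps. Of 79 tested, edgeR called 0 (17 higher and 0 lower at an unadjusted p under 0.05), 52 (65.8%) were higher in both batches and 0 lower in both, where among genes of at least 5 CPM the shares were 31.3% and 21.6%. The median difference was 0.39, with 0.19 in batch 1 and 0.62 in batch 2, and both clozapine libraries lay above both vehicle libraries for 40 and below for 0, beside 16.1% and 10.6% of genes of at least 5 CPM. Without the batch 2 clozapine library the medians of complexes I to IV and the ATP synthase were 0.03, 0.50, 0.24, 0.27 and 0.15. The 37 mitochondrially encoded features had 0 reads in every library, so only the nuclear part of the chain was measured.

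By complex, the medians were 0.28 for 37 genes of complex I, the NADH dehydrogenase, 0.52 for the 4 of complex II, 0.38 for 9 of complex III, 0.54 for 12 of complex IV with cytochrome c, and 0.33 for 17 of the ATP synthase. Ndufb9 of complex I was read at 18.6 and 9.83 CPM with vehicle, 33.4 and 28.0 CPM with clozapine, and 17.2 and 7.72 CPM with risperidone (1.19, SE 0.32, edgeR adjusted p 0.631). Ndufa12 was read at 49.7 and 45.0 CPM, 85.5 and 101 CPM, and 66.4 and 37.2 CPM (0.99, SE 0.26, edgeR adjusted p 0.631). Uqcr10 of complex III was read at 16.5 and 10.6 CPM, 31.2 and 27.5 CPM, and 17.2 and 11.8 CPM (1.15, SE 0.30, edgeR adjusted p 0.631). In these 3 genes both clozapine libraries stood above all 4 others. Sdhb (0.56, SE 0.25) and Sdha (0.47, SE 0.24) of succinate dehydrogenase, Cycs, which encodes cytochrome c (0.58, SE 0.25), Cox6b1 (0.57, SE 0.24) and Atp5b, the beta subunit of the ATP synthase (0.54, SE 0.23), were higher in both batches by smaller amounts.

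For risperidone minus vehicle the median over the 79 genes was -0.13, and for clozapine minus risperidone, from the same fit, 0.56. In the other fractions the clozapine minus vehicle median of the same genes was 0.55 in astrocytes and 0.39 in neurons. The summed level in microglia was 3550 and 3360 CPM with vehicle, 4050 and 5140 CPM with clozapine, and 3530 and 2710 CPM with risperidone, and the batch 2 clozapine library, the highest, was also the highest in pan-neuronal markers (7890 CPM against 1790 to 4910 CPM). The part of neuronal RNA in this difference was not tested. In batch 1 the respiratory median was 0.19, and the pan-neuronal sum was 2510 CPM with vehicle and 2500 CPM with clozapine. In the same 2 libraries astrocyte markers summed to 3010 and 5040 CPM and oligodendrocyte markers to 1150 and 3150 CPM. The part of RNA from these other cells was not tested either.

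**Figure D4:**
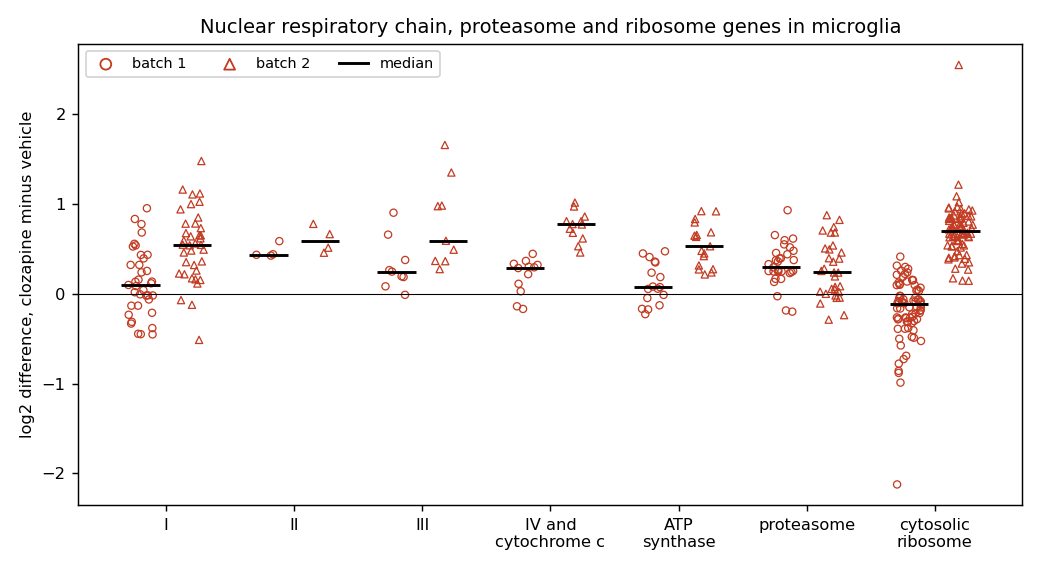
Log2 difference of clozapine minus vehicle in batch 1 (circles) and batch 2 (triangles) for each tested gene of the respiratory complexes, the proteasome and the cytosolic ribosome, with the median as a bar. Complexes II to IV have medians above 0 in both batches, proteasome medians are 0.30 and 0.24, and cytosolic ribosomal genes move from -0.11 in batch 1 to 0.70 in batch 2.

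Proteasome subunits had similar medians in both batches. Of 31 tested, edgeR called 0 (4 higher and 0 lower at an unadjusted p under 0.05), 23 (74.2%) were higher and 1 lower in both batches, with a median of 0.30, and 0.30 and 0.24 within batches. Among genes of at least 5 CPM 31.3% were higher and 21.6% lower in both batches. The clozapine minus vehicle median of the proteasome genes was 0.33 in astrocytes and 0.236 in neurons. Psmc1, an ATPase of the regulatory particle, was read at 61.0 and 77.9 CPM with vehicle, 92.5 and 125 CPM with clozapine, and 71.4 and 62.1 CPM with risperidone (0.65, SE 0.24). Psmc6 (0.61, SE 0.24) and Psmb6 (0.72, SE 0.29) were higher in both batches as well. Of 57 mitochondrial ribosomal genes 29 were higher and 6 lower in both batches (median 0.22), with Mrps14 (0.94, SE 0.27) and Mrps33 (0.94, SE 0.31) higher and Mrpl33 (-0.81, SE 0.32) lower. The 78 cytosolic ribosomal genes split by batch, with medians of -0.11 and 0.70, and 22 were higher in both, among them Rpl7a (0.58, SE 0.24) and Rpl4 (0.53, SE 0.24).

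In the metabolic and stress lists edgeR called 0 members, with 4 antioxidant, 1 sterol, 3 glycolysis and 2 stress response genes higher at an unadjusted p under 0.05, and 1, 0, 0 and 2 lower. Beside the counts that follow, 31.3% of genes of at least 5 CPM were higher and 21.6% lower in both batches. Of 17 antioxidant targets of the transcription factor NRF2, 11 were higher and 1 lower in both batches, with a median of 0.31, and of 0.35 for risperidone minus vehicle. Prdx1, a peroxiredoxin, was read at 149.5 and 82.0 CPM with vehicle, 325 and 146 CPM with clozapine, and 215 and 136 CPM with risperidone (0.98, SE 0.23, edgeR adjusted p 0.524). Hmox1, heme oxygenase 1, differed by 0.63 (SE 0.26) and Gclm, a subunit of the first enzyme of glutathione synthesis, by 0.64 (SE 0.26). Nqo1 went the other way at 0 to 3.09 CPM across the 6 libraries (-2.92, SE 1.22). Of 29 sterol and fatty acid synthesis genes 14 were higher and 2 lower in both batches (median 0.17), with Hmgcs1, the enzyme before HMG-CoA reductase, at 57.4 and 70.6 CPM with vehicle and 95.5 and 109.6 CPM with clozapine (0.68, SE 0.24, edgeR adjusted p 0.83). Elovl6 (0.54, SE 0.27) and Scd1 (0.53, SE 0.27) were higher in both batches. Of 19 glycolysis genes 13 were higher and 3 lower in both batches (median 0.16), with Gapdh (0.61, SE 0.25) and Pgk1 (0.54, SE 0.24) higher and Pfkp (-0.27, SE 0.24) lower. Of 16 integrated stress response genes 3 were higher and 4 lower in both batches (median 0.05). The 3 higher were Slc3a2 (0.53, SE 0.23), Phgdh (0.53, SE 0.25) and Psat1 (0.44, SE 0.25), of amino acid transport and serine synthesis. Among the lower was the pseudokinase Trib3 (-2.45, SE 0.70, from 2.83 and 3.66 CPM to 0.557 and 0.6 CPM).

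Of 25 tested genes that encode receptors bound by clozapine, edgeR called 0 (1 higher and 1 lower at an unadjusted p under 0.05), 3 were higher and 13 lower in both batches, with a median of -0.25 and one of -0.32 for risperidone minus vehicle. Among all genes tested 24.8% were higher and 26.8% lower in both batches. After Drd1, described above, the smallest p among those lower in both batches were those of the histamine H3 receptor Hrh3 (-0.55, SE 0.31) and the alpha-2C adrenergic receptor Adra2c (-0.70, SE 0.47). The alpha-1B adrenergic receptor Adra1b was read at 5.21 and 7.19 CPM with vehicle, 12.9 and 10.4 CPM with clozapine, and 5.92 and 4.77 CPM with risperidone (0.90, SE 0.40). The summed list was 276 and 482 CPM with vehicle, 250 and 429 CPM with clozapine, and 224 and 326 CPM with risperidone, higher in batch 2 throughout.

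Markers of other cell types moved between libraries, and their part in the results above was not tested. Pan-neuronal markers (12 tested, 5 higher and 1 lower in both batches) had medians of -0.01 and 0.65 in batch 1 and 2, with Snap25 at 253 and 854 CPM with vehicle, 316 and 1320 CPM with clozapine, and 200 and 482 CPM with risperidone. Oligodendrocyte markers had medians of 1.53 and -0.30, and Cnp was read at 77.5 and 70.5 CPM with vehicle, 259 and 91.9 CPM with clozapine, and 170 and 43.8 CPM with risperidone. Astrocyte markers, 9 of 12 higher in both batches, had medians of 0.76 and 0.18, and S100b was read at 36.6 and 18.2 CPM with vehicle and 59.0 and 32.2 CPM with clozapine. Border macrophage markers summed to 647 and 140 CPM with vehicle, 279 and 198 CPM with clozapine, and 234 and 171 CPM with risperidone, and Mrc1, their mannose receptor, was read at 184 and 12.7 CPM with vehicle and 57.6 and 41.5 CPM with clozapine. The 2 vehicle libraries thus lay on either side of the clozapine libraries in the macrophage sum. Haemoglobin and other erythrocyte genes summed to 16000 and 1640 CPM with vehicle, 10400 and 5290 CPM with clozapine, and 6290 and 1290 CPM with risperidone. Lymphocyte markers were read at a few CPM, 6 of 12 lower and 1 higher in both batches. Beside these marker counts, 24.8% of all genes tested were higher and 26.8% lower in both batches.

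**Figure D5:**
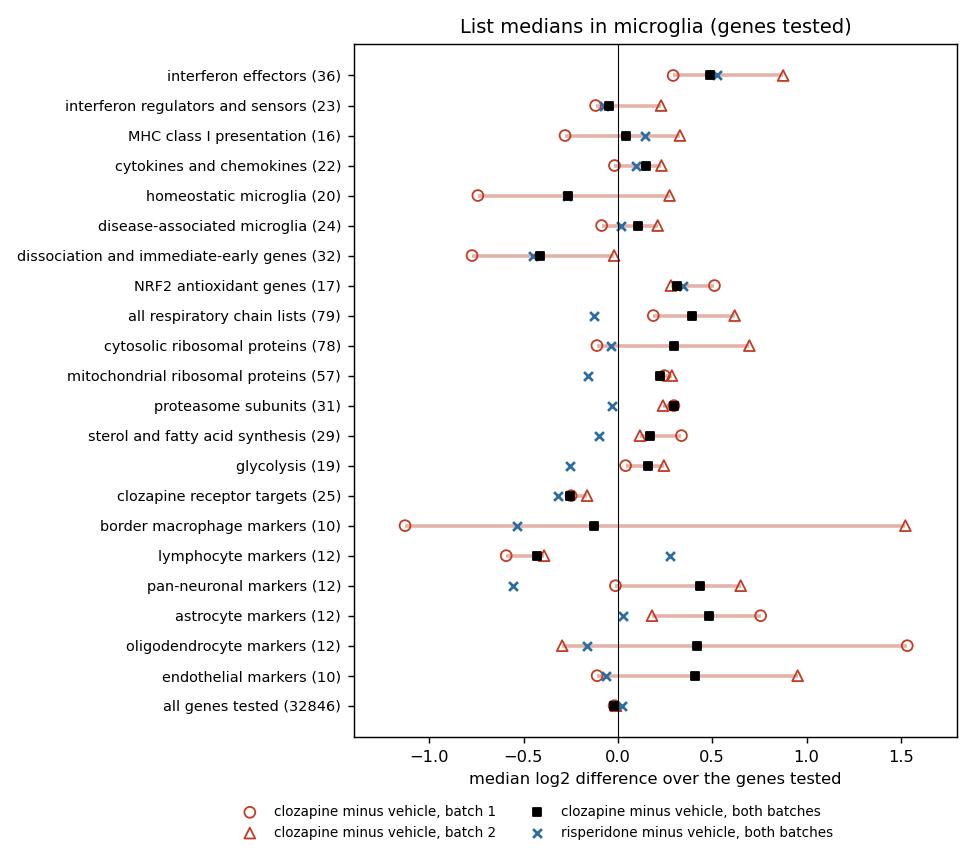
Median log2 difference of each list in microglia for clozapine minus vehicle within batch 1 (circles), within batch 2 (triangles) and in the fit over both (squares), and for risperidone minus vehicle in the fit (crosses), with the number of genes tested in brackets. Both drugs share the vehicle libraries; interferon effectors, antioxidant, respiratory and proteasome genes have clozapine medians above 0 in both batches, and border macrophage and oligodendrocyte markers have medians of opposite sign in the 2 batches.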

How the data were processed

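Paired-end RNA-seq of 18 libraries was deposited as raw counts of reads per gene, made by the authors with featureCounts 2.0.8 on GRCm39, per the file headers. The recorded call counts reads and not pairs, adds a read over several genes to each, and sets no strand, so overlapping and antisense genes share reads. The headers and labels name no aligner, and FastQC is named in the submitters' processing notes. Symbols came from an annotation matched by identifier (52029 of 56953, holding 96.2% of counts), and promoters from RefSeq on GRCm38.p6, so no coordinate was carried between builds.

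Clozapine was tested against vehicle in the 6 microglia libraries with the edgeR quasi-likelihood test (edgeR 4.0.16, R 4.3.3), with treatment and batch as terms, TMM scaling and the filterByExpr filter. Genes were called at a Benjamini-Hochberg adjusted p under 0.05. With 2 pools a group, 2 residual degrees of freedom remained. Within-batch differences are of log2 CPM with a prior count of 2. Interactions used all 18 libraries with the pool as a block. The labels call the replicate number a batch, which pairs the samples, and the batch difference correlated at 0.43 (vehicle and clozapine), 0.37 (vehicle and risperidone) and 0.41 (clozapine and risperidone) across 16333 genes. Depth was 4714468 to 13391163 assigned reads, and 0 pairs of libraries held identical values. The microglia fit with treatment and batch as terms was tested on simulated data, and the other fits were not.

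Named genes are those called with 1 direction in both batches, then, to 10 a direction, those of smallest p with the same direction in both batches and a mean of at least 5 CPM, without unnamed, predicted, pseudogene and small RNA genes. From each list up to 3 members of smallest p in the direction of the median and 1 in the other direction are named, and interferon effectors and cell type markers more freely. The members and lists were chosen with earlier results of these data known. Alternatives were no batch term, the 4 libraries alone, all 18 libraries, DESeq2 1.42.0, RLE scaling, no filter, other thresholds and leaving out each library.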

Additional observations from a re-analysis of the deposited data

How the results depend on the processing

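Without the replicate block, 0 genes were called for clozapine against vehicle and 0 against risperidone, where 5 and 2 were called with it, and a fit of all 18 libraries with the replicate block within each fraction called 0 against vehicle. The 4 libraries alone with the block gave 15, DESeq2 9 and no filter on low counts 42 against vehicle, and against risperidone DESeq2 gave 318 and no filter 248. Leaving out 1 microglia library at a time gave 18 to 87 calls against vehicle and 19 to 809 against risperidone, with 1 residual degree of freedom and more genes passing the filter, and the lone library is then assumed to vary like the others. For the interactions, leaving out 1 library gave 0 to 11 calls against astrocytes and 0 to 171 against neurons, and batch within each fraction as the replicate block gave 19 against neurons. RLE scaling kept all 5 genes and DESeq2 all but Ifit1. Of 3400 genes with the same direction in both batches at 1.5-fold, 1086 passed 2-fold and 551 a mean of at least 5 CPM.

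Leaving out 1 library turned the direction of 7 named genes, none of them called: Oasl2 ran from -0.29 to 0.68, Oas2 from -0.57 to 0.83, Oas3 from -0.29 to 0.91, Cx3cr1 from -0.86 to 0.05, P2ry12 from -0.78 to 0.15, Tmem119 from -0.92 to 0.093 and Mrc1 from -1.43 to 1.51. The cause was not tested. With the shorter core AANNGAAA, 64.8% of effector and regulator windows held a match, against 44.4% with the longer core and 23.9% of all windows with the shorter one. List medians of interferon effectors kept their sign in all 8 alternatives, from 0.37 to 0.79 when 1 library was left out. Other medians turned sign when 1 library was left out, among them glycolysis (0.16 to -0.01), cytokines (0.15 to -0.04), disease-associated microglia (0.11 to -0.04), cytosolic ribosomal (0.30 to -0.01), homeostatic microglia (-0.26 to 0.23) and pan-neuronal genes (0.43 to -0.03). With 2 pools a group, small differences were not detectable.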

Other observations

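Several groups outside the lists above were described after their values were seen. Because Rgs9 and Drd1 were lower in both batches, 12 genes of striatal projection neurons were read, these 2 included, and 8 were lower and 0 higher in both batches, with a median of -0.51. Since Rgs9 and Drd1 prompted the list and count among the 8, the count is a description only. Over all genes tested 26.8% were lower in both batches. Of the 12 edgeR called 0, and 5 were lower at an unadjusted p under 0.05, Rgs9 and Drd1 among them. Penk, the precursor of enkephalin, was read at 56.2 and 189.5 CPM with vehicle, 36.7 and 93.2 CPM with clozapine, and 32.7 and 74.6 CPM with risperidone (-0.83, SE 0.24). The risperidone minus vehicle median of the same genes was -0.65, with shared vehicle libraries, and the summed level was 339 and 781 CPM with vehicle, 234 and 449 CPM with clozapine and 228 and 381 CPM with risperidone. In the other fractions the clozapine minus vehicle median of these genes was -0.254 in astrocytes and -0.545 in neurons.

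Ttr, which encodes transthyretin and is abundant in choroid plexus, was read at 26.3 and 4.41 CPM with vehicle, 126 and 39.1 CPM with clozapine, and 3.41 and 26.1 CPM with risperidone (2.48, SE 0.59, edgeR adjusted p 0.524). Of 10 choroid plexus genes 2 were higher and 3 lower in both batches (median -0.12). Kcnj13, another marker of that tissue, was read at 2.52 to 4.87 CPM in the 6 libraries.

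The small cytoplasmic RNAs Bc1, Rny1 and Rny3 were picked after their values were seen, and each was higher with clozapine in both batches. Over all 41 small structural RNA genes with a mean of at least 5 CPM, a set without Bc1, 12 (29.3%) were higher in both batches, with a median of 0.07. Of all genes with at least 5 CPM 31.3% were. Bc1, a neuronal RNA that represses translation, was read at 893 and 360.4 CPM with vehicle, 1662 and 2063 CPM with clozapine, and 243 and 703.5 CPM with risperidone (1.52, SE 0.37, edgeR adjusted p 0.524), and without the batch 2 vehicle library it differed by 0.63. The Y RNAs Rny1 and Rny3, which bind the Ro protein, differed by 2.07 (SE 0.46) and 2.19 (SE 0.56), the latter by 1.03 without the batch 1 clozapine library. Rny1 was read at 5.06 and 2.14 CPM with vehicle, 17.0 and 12.8 CPM with clozapine, and 5.38 and 12.1 CPM with risperidone. Rny3 was read at 11.75 and 5.80 CPM, 47.6 and 32.2 CPM, and 3.59 and 43.5 CPM in the same order. In batch 2 Rny3 was thus higher with risperidone than with clozapine.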
